A study of Homo sapiens with 4 samples.

Results

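Interferon-stimulated genes encode the antiviral proteins that cells make after they sense an interferon. A set of 30 such genes was followed here in ribosome footprint data, each found by its symbol in the deposited transcript tables, out of 60651 genes listed. Type I interferons bind the receptor chains IFNAR1 and IFNAR2, and the kinases JAK1 and TYK2 then phosphorylate transcription factors such as STAT2. STAT2 joins IRF9 in a complex that binds the interferon-stimulated response element (ISRE) in the promoters of its target genes. The products hinder viruses at entry, replication, translation and release, and many blood cells hold a low level of them without any added interferon.

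The libraries came from 4 human leukemia lines grown without a labelled treatment, with 1 library per line. K562 came from the blast phase of a chronic myeloid leukemia and makes embryonic and fetal globins. THP-1 is a monocytic line with a KMT2A fusion, as is MOLM13, in which FLT3 also has an internal tandem duplication. HL60 came from an acute leukemia whose blasts resemble promyelocytes. Each is an established cell line, so a group is 1 culture of 1 line. Per the labels' protocols, the lysis buffer held cycloheximide, which halts ribosomes on the message, and a nuclease then left the fragments that ribosomes shield. A footprint level therefore combines the amount of a message with how densely ribosomes sit on it, and these cannot be told apart here. In such bulk lysates, fewer cells with a message and less of it per cell cannot be told apart either.

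Levels are given as scaled TPM, the authors' TPM (abundance relative to the library total and corrected for length) summed over each gene's transcripts and brought to a common scale between libraries. The libraries held 344 aligned megabases (the one labelled MOLM13), 473 (K562), 678 (THP-1) and 973 (HL60). Intervals are exact 95% Poisson intervals on aligned bases divided by a fragment length of 29, and they cover counting error only. At 600 aligned bases, the least that a call requires, the interval spans 61.7% to 153% of the value. A value listed at 0 may be a failed estimate, which was not tested. Of 84 genes matched by ribosomal protein symbols, 3 to 7 are also listed at 0 in each library. The symbol pattern admits paralogs that not every cell need use, so these genes do not settle it. No line has a second library, so no difference between lines could be set against replicate spread and none has a p-value.

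The label of 1 library was in doubt before any member was compared. The deposited file of the MOLM13-labelled library carries another name than its label. FLT3 and MEIS1 were listed at 0 in it, and their levels elsewhere were low. FLT3 was at a scaled TPM of 1.83 in THP-1 and listed at 0 in K562 and HL60. MEIS1 was at 1.81 in K562, 0.304 in THP-1 and 0 as listed in HL60. HOXA9 and HOXA10, genes of KMT2A-rearranged leukemias, were at 29.5 and 16.2 in the MOLM13-labelled library and at 15.7 and 18.7 in THP-1. Both were at most 3.05 in K562 and HL60. MEF2C, from the same marker list, was at 10.8, 87.9, 32.2 and 1.80 in the MOLM13-labelled library, THP-1, K562 and HL60. CD3D, a chain of the T cell receptor complex, was at 891 in the MOLM13-labelled library against 3.37 to 49.0 in the others. CD3E and CD7 were at 12.4 and 16.3 there and listed at 0 elsewhere. NKG7 was at 23.5 there and at 42.0 in THP-1. TRAC, CD2, CD8A, GNLY and CD3G were listed at 0 there, and CD3G was at 3.65 in K562. The summed level of 11 monocytic markers was 42.0 in the MOLM13-labelled library, 4147 in THP-1, 1227 in HL60 and 44.6 in K562. LYZ held 2769 of the sum in THP-1. LYZ, CSF1R, CD68, FCER1G and IRF8 were highest in THP-1. CD14, ITGAM, CD86, CYBB and SPI1 were highest in HL60, and FCGR1A was listed at 0 throughout. The summed level of 6 promyelocytic granule genes was 9698 in HL60 and 8420 in THP-1, against 32.1 in the MOLM13-labelled library and 15.5 in K562. MPO was at 6359 in HL60 and 38.6 in THP-1, and MS4A3 at 450 and 177. ELANE, PRTN3, AZU1 and CTSG were higher in THP-1, at 1504, 1088, 2065 and 3548. In HL60 they were at 104, 161, 337 and 2288. The summed level of 12 erythroid genes was 15176 in K562 and at most 27.3 elsewhere. The part of these marker differences in the results on interferon-stimulated genes was not tested.

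Promoter stretches with an ISRE core are printed first, to show how this element is spelled in 6 of the genes that hold one. Of these, IFITM3 and RSAD2 were called high in a line by the size rule given with the levels, and ISG15, IFIT1, BST2 and IFI6 were called in none. The sequences come from RefSeq on GRCh38.p14, and capitals mark the ISRE core, which is GAAA, any 2 bases and GAAA again, or its reverse complement. All 6 windows lie before the annotated start, on the strand of the gene.
ISG15, chr1:1013364-1013419, plus strand: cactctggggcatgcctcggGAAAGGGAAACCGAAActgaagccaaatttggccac
IFIT1, chr10:89392487-89392549, plus strand: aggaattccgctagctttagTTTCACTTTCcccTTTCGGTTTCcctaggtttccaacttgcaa
IFITM3, chr11:320866-320932, minus strand: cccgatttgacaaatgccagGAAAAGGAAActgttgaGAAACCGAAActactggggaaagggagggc
BST2, chr19:17405725-17405780, minus strand: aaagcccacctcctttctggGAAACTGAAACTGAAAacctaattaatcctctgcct
IFI6, chr1:27672256-27672368, minus strand: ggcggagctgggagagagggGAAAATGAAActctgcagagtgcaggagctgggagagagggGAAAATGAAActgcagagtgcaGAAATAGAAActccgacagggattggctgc
RSAD2, chr2:6877612-6877661, plus strand: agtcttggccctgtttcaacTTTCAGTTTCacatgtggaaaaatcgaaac

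In ISG15 and BST2 the 2 cores overlap in 1 run of capitals, IFI6 holds 3 separate cores, and RSAD2 holds 1. Promoters of 23 of the 30 genes were matched; IFIT2, IFITM2, MX2, OAS2, OASL, IRF7 and TRIM22 were not. A window ran from 250 bases before to 50 bases after the start. An ISRE core stood in 15 of the 23 genes (65.2%), against 659 of 15843 protein-coding genes (4.16%) and 3.57% of all promoters in the table. At least 2 cores in 1 promoter were found in 11 of the 23 (47.8%), against 0.335% of protein-coding genes. The gamma-activated site TTCNNNGAA, a motif of the type II interferon response, was in 7 of the 23 (30.4%) and in 8.98% of protein-coding genes. Both motifs were searched on both strands. The 8 matched genes without a core in this window were DDX58, IFI16, IFI30, IFI35, IRF9, OAS1, STAT2 and XAF1. A match is a description of these letters and not of a bound site.

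Signal above 0 was listed for 27 of the 30 genes in THP-1, 23 in HL60, 18 in the MOLM13-labelled library and 14 in K562. In 27 of the 30 the scaled TPM reached 1 in at least 1 line, and these 27 were compared. The other 3 were MX1 and IFI44L, listed at 0 in every library, and ISG20, an exonuclease, at 0.377 in THP-1 and listed at 0 elsewhere. Of the 27 genes compared, 13 were listed at 0 in K562, 9 in the MOLM13-labelled library, 4 in HL60 and 1 in THP-1. Over the 11823 protein-coding genes compared the same way, 20.4% were listed at 0 in K562, 15.5% in the MOLM13-labelled library, 12.1% in HL60 and 8.95% in THP-1. The deepest library, HL60, was not the one with the most members above 0.

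**Figure D1:**
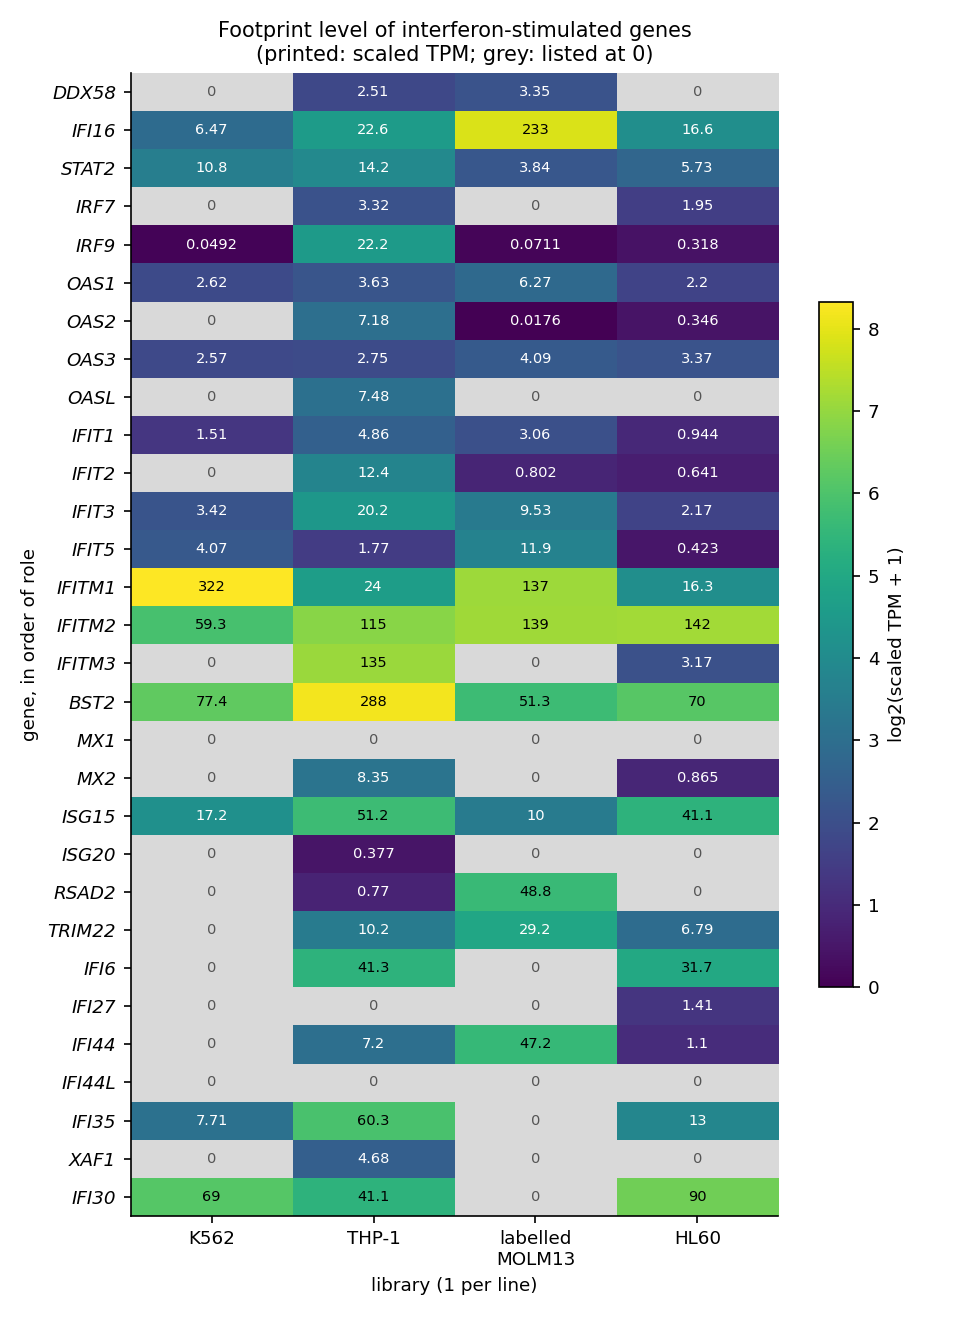
Rows are the 30 interferon-stimulated genes in order of role and columns the 4 libraries, 1 per line; colour gives log2(scaled TPM + 1), the printed number the scaled TPM, and grey a gene listed at 0. THP-1 has 27 coloured cells and K562 14, and MX1 and IFI44L are grey in all 4 libraries.

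THP-1 had the highest level of 15 of the 27 genes, the MOLM13-labelled library of 8, HL60 of 3 and K562 of 1. Among all protein-coding genes compared, the shares were 27.8%, 29.7%, 19.4% and 23.2% in that order. High was taken to mean a log2(scaled TPM + 1) that exceeded every other line by 2 or more, a distance near 4-fold, on no fewer than 600 aligned bases. By this rule 8 of the 27 were high in THP-1, where the rule called 3.35% of protein-coding genes. This count fell to 6 with aligned bases not divided by length, where IFI35 and MX2 were lost. Adding the bases of overlapping genes to these lost IRF9 as well and left 5. The count fell to 3 at a log2 distance of 3 and to 2 with 5 in place of 1 added to the scaled TPM. Among the 12 genes above 0 in all 4 libraries it was 1. That gene was IRF9, whose call was lost with overlapping genes added. Its values outside THP-1 rest on at most 6.11 footprint equivalents, that is, aligned bases divided by 29. In the MOLM13-labelled library 3 were high, with 1.94% of protein-coding genes called, and 1 of these 3 is among the 12. None was high in K562 or HL60, where 1.74% and 1.48% of protein-coding genes were.

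Low was the mirror of this, and required 600 aligned bases in every other line. Low were IFI30 and IFI35 in the MOLM13-labelled library (1.48% of protein-coding genes called) and TRIM22 in K562 (3.65%). None was low in THP-1 (0.448%) or HL60 (1.34%). These low calls rest on values listed at 0, and with 5 added to the scaled TPM only that of IFI30 was left. Without the MOLM13-labelled library, 3 members were low and 1 was high in K562. Each line was also set against the average of its 3 counterparts on the log2(scaled TPM + 1) scale. The median of this difference was 1.18 in THP-1, -0.59 in HL60, -0.64 in the MOLM13-labelled library and -1.03 in K562. Over all protein-coding genes compared it was 0.04, -0.21, 0.12 and -0.10. The median in the MOLM13-labelled library turned to 0.44 when only the 12 genes above 0 in all 4 libraries were kept, and that in THP-1 rose to 1.88 without the MOLM13-labelled library.

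**Figure D2:**
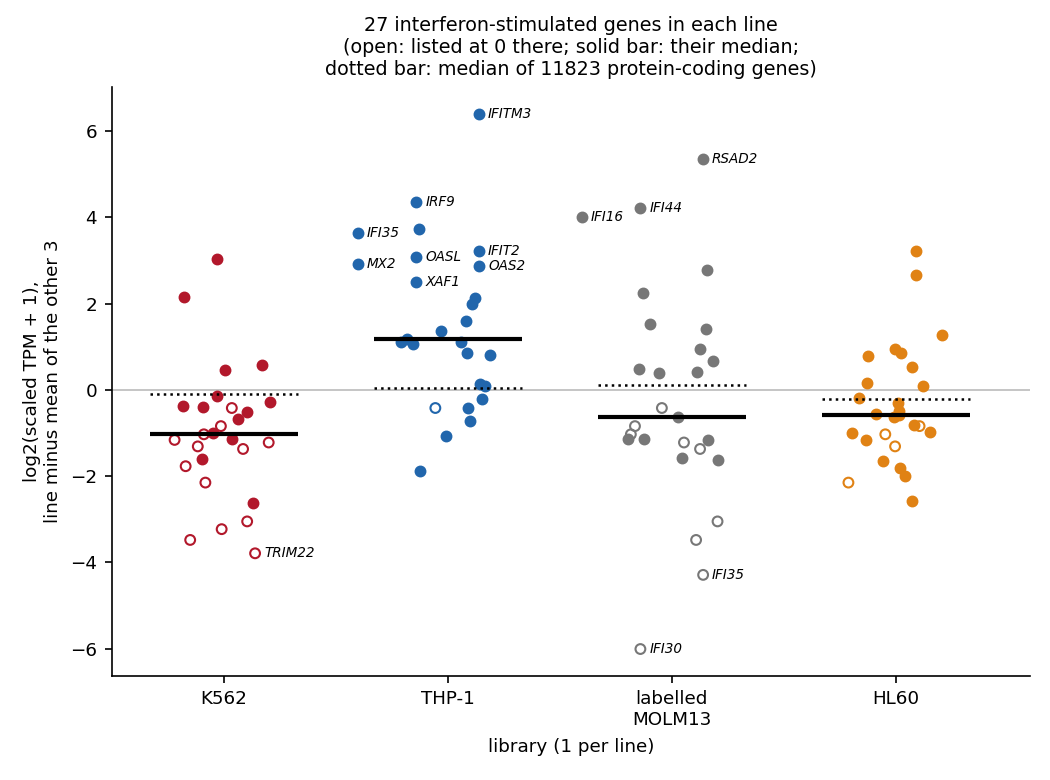
Each point is 1 of the 27 genes compared, placed by its log2(scaled TPM + 1) minus the average of the 3 other libraries; open points are listed at 0 in that line, the solid bar is the median of the 27 and the dotted bar that of 11823 protein-coding genes. Genes called high or low are named: 8 stand high in THP-1, 3 high and 2 low in the MOLM13-labelled library, and 1 low in K562.

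The genes that made up the signal differed between lines. Of the aligned bases on all members, IFITM1 held 43.9% in K562, BST2 24.2% in THP-1, IFI16 34.1% in the MOLM13-labelled library and IFITM2 21.2% in HL60. The members together took 1195 of every 1000000 protein-coding bases in the MOLM13-labelled library, 1095 in THP-1, 726 in K562 and 511 in HL60. The library with the largest summed share was therefore not the one with the most members high.

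Among the sensors, IFI16, a DNA sensor of the PYHIN family, lies on chromosome 1 (hg38, bases 158999968 to 159055155, plus strand). It was at 6.47 in K562, 22.6 in THP-1, 233 in the MOLM13-labelled library and 16.6 in HL60. The interval of the highest value ran from 226 to 240, and the next highest, THP-1, had one from 21.2 to 24.0. The MOLM13-labelled library stood 10.3-fold above THP-1 and 36.0-fold above K562. DDX58 encodes RIG-I, the cytosolic sensor of viral RNA with a free triphosphate end. It was listed at 0 in K562 and HL60 and lay between 2.51 and 3.35 in the other two.

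Among the transcription factors of the pathway, IRF9, the DNA-binding part of the complex with STAT2, was at 0.0492 in K562, 22.2 in THP-1, 0.0711 in the MOLM13-labelled library and 0.318 in HL60. The 3 low values rest on 0.598, 0.450 and 6.11 footprint equivalents, and the intervals of K562 and the MOLM13-labelled library overlap each other, as do those of the MOLM13-labelled library and HL60. STAT2 was measured in all 4 lines, between 3.84 in the MOLM13-labelled library and 14.2 in THP-1, and it was called in none. IRF7, which amplifies type I interferon production, was listed at 0 in K562 and in the MOLM13-labelled library and lay between 1.95 and 3.32 in the other two.

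The level of IRF9 depends on how the deposited tables divide 1 locus. All 1154 fragments of 29 bases in its coding sequence also occur in AL136295.5, a protein-coding gene model on the same strand that shares 1513 exon bases with it. On these shared exons AL136295.5 was given 2.1 bases per aligned megabase in K562, 8.84 in THP-1, 9.27 in the MOLM13-labelled library and 5.14 in HL60. IRF9 itself was given 0.0360, 11.9, 0.0378 and 0.182. The sums were 2.14, 20.7, 9.31 and 5.32, so THP-1 remained highest and stood 2.23-fold above the MOLM13-labelled library. With these bases added IRF9 was no longer called high in THP-1. Of the IRF9 bases in THP-1, 46.6% were assigned to 1 transcript annotated as a retained intron.

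The locus of IFI30 has the same layout. IFI30 encodes GILT, a lysosomal thiol reductase that opens disulphide bonds of antigens for presentation on MHC class II. It was at 69.0 in K562, 41.1 in THP-1, 0 as listed in the MOLM13-labelled library and 90.0 in HL60. All 725 coding fragments of 29 bases also occur in AC007192.1, whose exons share 997 bases with it. In the MOLM13-labelled library that gene was given 6.68 bases per aligned megabase on the shared exons. The locus sums were 66.9, 35.2, 6.68 and 86.0 in K562, THP-1, the MOLM13-labelled library and HL60, and HL60 stood 12.9-fold above the lowest. IFI30 stayed low there under each alternative that was run and kept it in the comparison. DDX58 shares 43.2% of its exon bases with AL353671.1, and the signal of that gene in HL60 brought its locus there from 0 to 3.70 bases per aligned megabase.

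**Figure D3:**
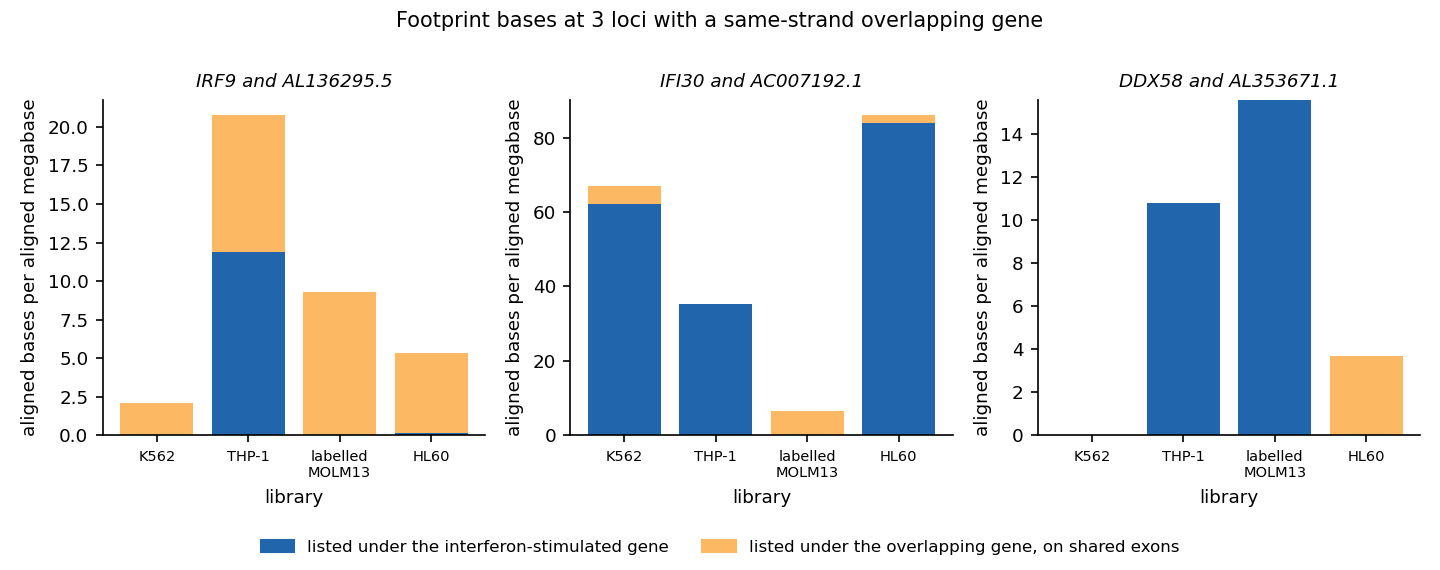
Bars give aligned bases per aligned megabase in each library, on linear axes from 0, for IRF9, IFI30 and DDX58 (blue) and for the gene that shares their exons on the same strand (orange, shared exons only). At IRF9 the MOLM13-labelled library reaches 9.31 and THP-1 20.7, and at IFI30 all 6.68 bases of the MOLM13-labelled library are listed under the other gene.

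The oligoadenylate synthetases make the second messenger that switches on RNase L. They split into a pair listed with signal in every line and a pair seen mainly in THP-1. OAS1 lay between 2.20 and 6.27 and OAS3 between 2.57 and 4.09 across the 4 lines. Exons that are not wholly coding held from 82.6% (HL60) to 99.9% (K562) of the OAS1 bases. On wholly coding exons K562 had 0.00847 bases per aligned megabase for OAS1 and 10.6 for OAS3. For OAS1 the intervals of K562 and HL60 overlap, and for OAS3 those of HL60 and the MOLM13-labelled library and those of K562 and THP-1. OAS2 was listed at 0 in K562, at 7.18 in THP-1, 0.0176 in the MOLM13-labelled library and 0.346 in HL60, which put THP-1 20.7-fold above HL60. OASL, a family member without the enzymatic activity, was at 7.48 in THP-1 (6.84 to 8.17) and listed at 0 in K562, the MOLM13-labelled library and HL60. OAS1, OAS2 and OAS3 lie side by side on chromosome 12, from base 112905856 to 113011723, and OASL lies apart at 121017763 to 121039242.

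Of the IFIT proteins, IFIT1 binds viral RNA that lacks the methyl marks of the host cap. The 4 IFIT genes lie on chromosome 10 between bases 89283694 and 89421605. IFIT2 was listed at 0 in K562, at 12.4 in THP-1 (11.6 to 13.3), 0.802 in the MOLM13-labelled library and 0.641 in HL60. THP-1 stood 15.5-fold above the next line, and the intervals of the MOLM13-labelled library and HL60 overlap. IFIT3, the partner that stabilises IFIT1 on RNA, was at 3.42 in K562, 20.2 in THP-1, 9.53 in the MOLM13-labelled library and 2.17 in HL60. IFIT1 put the lines in the same order as IFIT3, from 4.86 in THP-1 to 0.944 in HL60. IFIT5 alone of the family was highest in the MOLM13-labelled library, at 11.9, and it lay at 0.423 to 4.07 in the others. Summed over the 4 genes, the level was 9.0 in K562, 39.2 in THP-1, 25.3 in the MOLM13-labelled library and 4.18 in HL60.

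The IFITM proteins block the fusion of enveloped viruses with the membranes of the cell, IFITM1 mainly at the surface and IFITM2 and IFITM3 in endosomes. The 3 genes lie within bases 303655 to 329475 of chromosome 11 on hg38. IFITM1 was at 322 in K562 (312 to 332), 24.0 in THP-1, 137 in the MOLM13-labelled library and 16.3 in HL60. K562 stood 2.34-fold above the next line and 19.7-fold above HL60, and IFITM1 was the only member highest in K562. IFITM2 was at 59.3, 115, 139 and 142 in K562, THP-1, the MOLM13-labelled library and HL60, with overlapping intervals in the last pair. IFITM3 was listed at 0 in K562 and in the MOLM13-labelled library, at 135 in THP-1 (129 to 141) and at 3.17 in HL60. Summed over the 3 genes the level was 381, 274, 276 and 161 in the same order, so the lines differed less in the sum than in which gene carried it. IFITM1 made 84.4% of the sum in K562, IFITM3 49.3% in THP-1, IFITM2 50.4% in the MOLM13-labelled library and IFITM2 87.9% in HL60.

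The IFITM genes are close copies, which bears on every value of the family. The coding sequences of IFITM2 and IFITM3 match at 375 of 399 aligned bases (94.0%), and the longest run without a difference is 99 bases. Of the 29-base fragments of the coding sequence, 71.7% of those of IFITM3, 64.0% of those of IFITM1 and 36.4% of those of IFITM2 also occur in another gene. The first codons show where the pair can be told apart, with capitals at the 8 bases of IFITM2 that differ from IFITM3 in the alignment.
IFITM3, from the start codon: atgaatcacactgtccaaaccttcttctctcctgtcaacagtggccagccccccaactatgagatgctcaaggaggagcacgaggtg
IFITM2, from the start codon: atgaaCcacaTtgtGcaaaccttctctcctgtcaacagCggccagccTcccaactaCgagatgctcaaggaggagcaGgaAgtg

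IFITM2 is 3 bases shorter than IFITM3 over this stretch, 84 against 87. How a footprint that fits both genes was assigned is not given in the sources used here. BST2, or tetherin, holds budding virus particles at the cell surface and shares no such fragment with another gene. It was at 77.4 in K562, 288 in THP-1 (280 to 295), 51.3 in the MOLM13-labelled library and 70.0 in HL60. THP-1 stood 3.72-fold above K562, a log2 distance of 1.88 that fell just short of a call, and the intervals of K562 and HL60 overlap. On wholly coding exons K562 was lowest, at 16.2 bases per aligned megabase. The MOLM13-labelled library had 33.8 on these exons, HL60 43.7 and THP-1 166. All BST2 bases of K562 were assigned to 1 transcript of 1001 bases, and a transcript of 879 bases held most of them in the other lines.

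**Figure D4:**
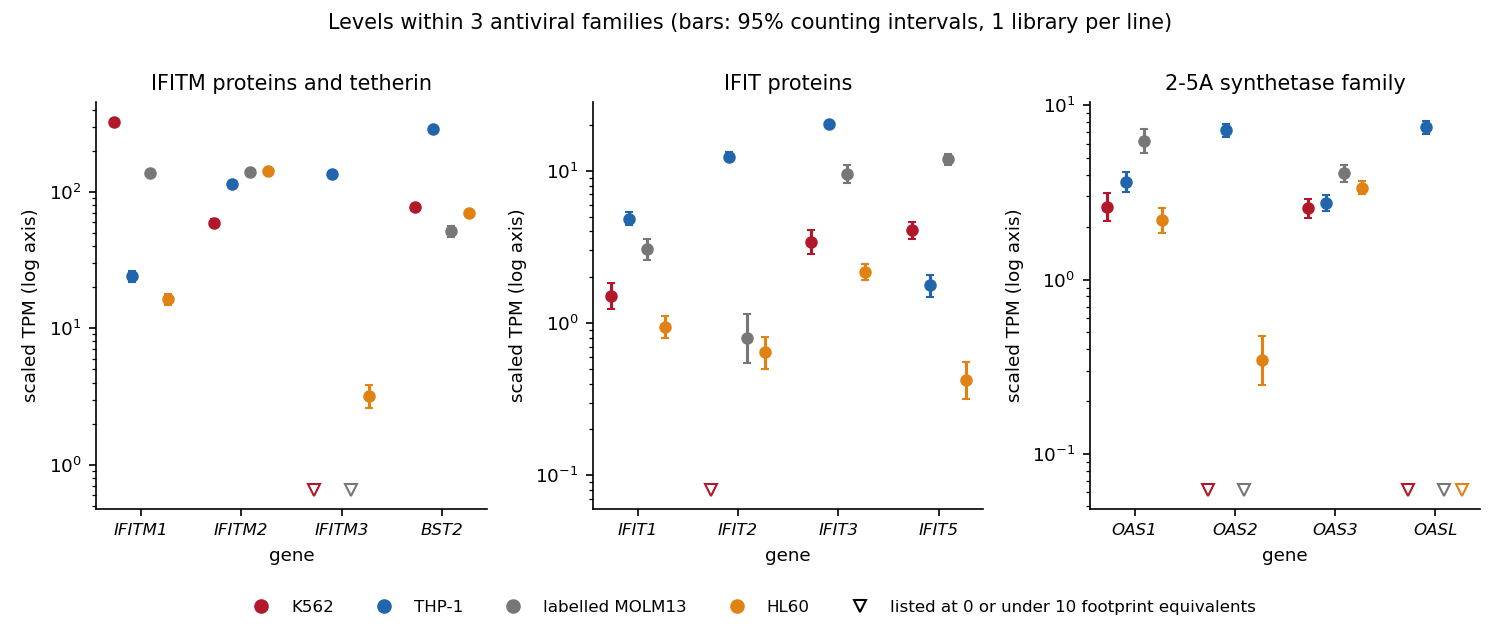
Points give scaled TPM on log axes for the IFITM genes with BST2, the IFIT genes and the oligoadenylate synthetase family, coloured by line, with exact 95% Poisson intervals (counting error only); triangles at the foot mark values listed at 0 or resting on under 10 footprint equivalents. IFITM1 is highest in K562 at 322 and IFITM3 in THP-1 at 135, and OAS2 and OASL have their one high value in THP-1.

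Of the MX proteins, dynamin-like GTPases that trap viral nucleoproteins and capsids, MX1 was listed at 0 in all 4 lines. MX2 was listed at 0 in K562 and in the MOLM13-labelled library, at 8.35 in THP-1 (interval 7.30 to 9.5) and at 0.865 in HL60. THP-1 stood 9.65-fold above HL60 in scaled TPM and 3.45-fold in aligned bases, and the mean length of the transcripts that carried it was 1352 bases in THP-1 and 3485 in HL60. Exons that lie wholly before the coding region took 48.2% of the MX2 bases in THP-1 and 1.95% in HL60. On wholly coding exons THP-1 had 3.63 bases per aligned megabase and HL60 1.87, a ratio of 1.94.

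ISG15, a ubiquitin-like modifier that is joined to other proteins during the response, was at 17.2 in K562, 51.2 in THP-1, 10.0 in the MOLM13-labelled library and 41.1 in HL60. THP-1 stood 1.24-fold above HL60 and 5.10-fold above the lowest line, and it was called in none. RSAD2 encodes viperin, a radical SAM enzyme that makes a chain-terminating nucleotide. It was listed at 0 in K562 and HL60, at 0.770 in THP-1 and at 48.8 in the MOLM13-labelled library (46.6 to 51.0). The difference was 63.3-fold in scaled TPM over THP-1 and 30.4-fold in bases on wholly coding exons, and the call held under each alternative run. CMPK2, the neighbour of RSAD2 on the other strand, is outside the 30 genes and was picked out after its values were seen. It was at 0, 2.34, 12.1 and 0 in K562, THP-1, the MOLM13-labelled library and HL60. The 2 genes share 351 exon bases, and since the authors' run names no strand option, reads of either gene on these bases cannot be told apart. Of the bases given to CMPK2, 230 of 9737 in the MOLM13-labelled library and 257 of 4272 in THP-1 lay there. TRIM22, a ubiquitin ligase that restricts viral transcription, was listed at 0 in K562 and lay at 10.2 in THP-1, 29.2 in the MOLM13-labelled library and 6.79 in HL60.

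Among the remaining members, IFI6, a mitochondrial and endoplasmic reticulum protein that blocks cell death and flavivirus replication, was listed at 0 in K562 and in the MOLM13-labelled library. Its level was 41.3 in THP-1 and 31.7 in HL60, so its level was above 0 in 2 lines and listed at 0 in 2. IFI35 was at 7.71 in K562, 60.3 in THP-1, 0 as listed in the MOLM13-labelled library and 13.0 in HL60, with THP-1 4.64-fold above HL60. IFI44 was listed at 0 in K562, at 7.20 in THP-1, 47.2 in the MOLM13-labelled library (43.4 to 51.2) and 1.10 in HL60. XAF1, a factor that favours apoptosis, was at 4.68 in THP-1 (4.19 to 5.22) and listed at 0 in the other 3. IFI27 was above 0 in HL60 alone, at 1.41.

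For IFI16 and IFI44 the size of the difference moved with the exons counted. In the MOLM13-labelled library, IFI16 had 242 bases per aligned megabase on wholly coding exons, against 32.3 in HL60, 26.3 in THP-1 and 21.3 in K562, a ratio of 7.49 to the next line. The order of THP-1 and HL60 was thus the reverse of that in scaled TPM. In K562 all IFI16 bases were assigned to 1 transcript of 4138 bases annotated as a retained intron, while its coding exons held 87.3% of them. IFI44 had 16.8 bases on coding exons in the MOLM13-labelled library and 6.31 in THP-1, a ratio of 2.66, where scaled TPM gave 6.56. Of the IFI44 bases in the MOLM13-labelled library, 60.9% were assigned to a transcript annotated as processed and not coding. Of 19 members with bases on wholly coding exons, the highest line differed from that in scaled TPM for 4. The exons counted are those of the transcripts to which bases were assigned, so these orders also depend on that assignment. IFI6 had 13.2 bases per aligned megabase on these exons in HL60 and 10.7 in THP-1, and IRF7 had 0.931 and 0.656, whereas THP-1 was highest for both in scaled TPM. For IRF7 these exons held 36.3% of the bases in HL60 and 11.1% in THP-1. OAS1 was highest in THP-1 at 1.13 bases per aligned megabase, against 0.746 in HL60 and 0.00847 in K562. The MOLM13-labelled library, which led in scaled TPM, had 0.618. IFITM2 had such bases in the MOLM13-labelled library alone, at 3.76, although HL60 led in scaled TPM. Of 23 members with at least 600 aligned bases in 2 or more lines, the transcript with most bases was the same in all such lines for 9 and differed for 14.

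**Figure D5:**
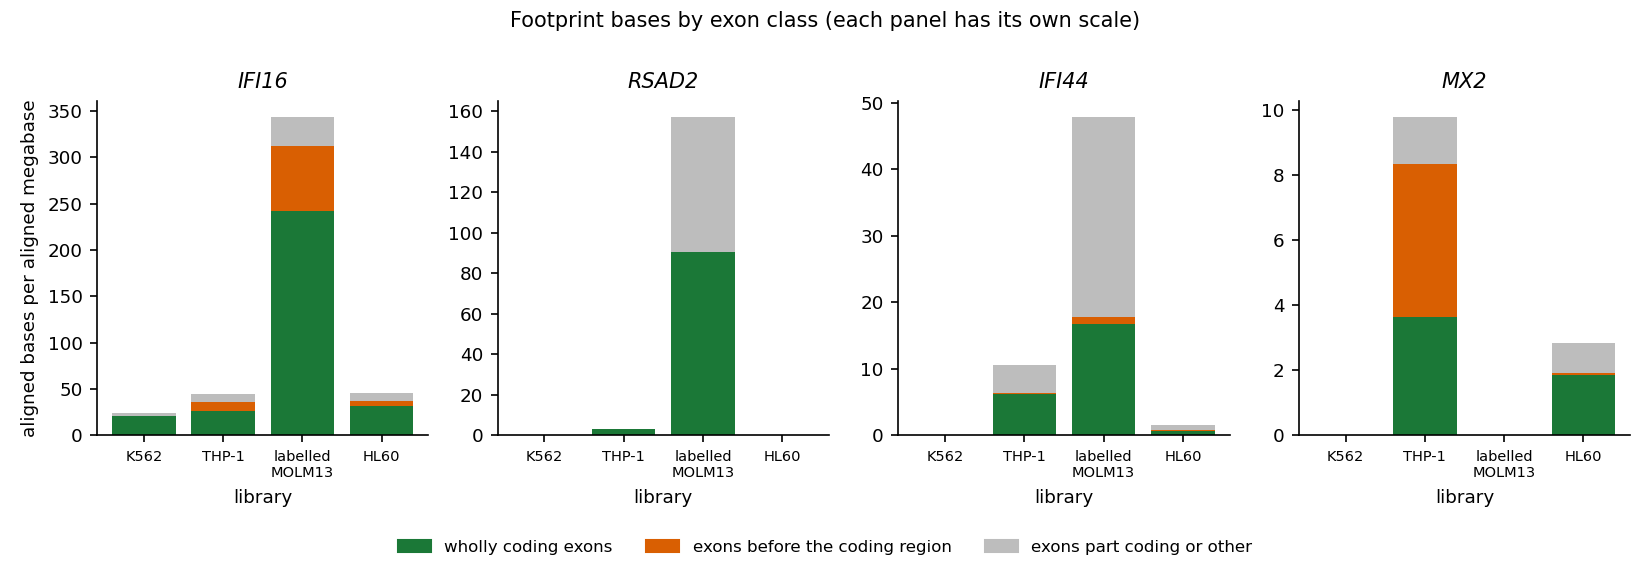
Stacked bars give aligned bases per aligned megabase, from 0 and with a scale of its own in each panel, on wholly coding exons (green), exons before the coding region (orange) and other exons (grey) of IFI16, RSAD2, IFI44 and MX2 in each library. Green bars reach 242 for IFI16 and 90.3 for RSAD2 in the MOLM13-labelled library, and in THP-1 MX2 has more bases before the coding region, 4.72, than on coding exons, 3.63.

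Between pairs of lines, a gene was counted apart when its log2(scaled TPM + 1) differed by at least 2 with at least 600 aligned bases in the higher line. THP-1 was above K562 for 13 of the 27 genes, where 13.7% of protein-coding genes were, and K562 was above THP-1 for IFITM1 alone (6.39%). In 10 of those 13 genes the K562 value was listed at 0. THP-1 was above the MOLM13-labelled library for 13 genes (10.6%), 8 of them with a 0 on the lower side, and below it for IFI16, IFI44, IFIT5, IFITM1 and RSAD2 (7.27%). THP-1 was above HL60 for 10 genes (7.60%), in 2 of which HL60 was listed at 0, and HL60 was above THP-1 for none (3.41%). HL60 was above K562 for IFI6, IFITM3 and TRIM22 (10.7%), all 3 listed at 0 in K562, and K562 was above HL60 for IFITM1 (8.81%). The MOLM13-labelled library was above HL60 for 6 genes (10.2%) and above K562 for 5 (9.24%), and below them for 4 (7.86%) and 2 (5.29%). In 2 of the 6, 4 of the 5 and all of the last 4 and 2 the lower value was listed at 0. The 6 pairs share libraries and are not independent.

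Members with an ISRE core in the promoter window had a median of 0.97 in THP-1 over 12 genes compared, and those without one 1.14 over 8, on the same difference scale. The medians were -0.59 and -0.61 in K562 and -0.79 and -0.73 in HL60. In the MOLM13-labelled library they were 0.40 with a core and -0.99 without. IFI16, the member with the highest level there, is among the genes without a core in this window. IFIT2, IFITM2, MX2, OAS2, OASL, IRF7 and TRIM22, whose promoters were not matched, are in neither group. Of these, IFIT2, MX2, OAS2 and OASL were called high in THP-1.

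Genes outside the members were read from 6 lists of 131 genes in all. These cover genes that act before the members, negative regulators and other interferon-stimulated genes. Of 21 interferon genes, 20 were listed at 0 in every library and IFNB1, the exception, was at 1.32 in THP-1 alone. This value rests on 654 aligned bases, close to the least that a call requires, and IFNB1 was called in no line. IFNAR1 was at 8.23, 3.50, 4.67 and 7.50 in K562, THP-1, the MOLM13-labelled library and HL60, and IFNAR2 at 2.02, 9.76, 3.81 and 0.624. JAK1 was at 16.8, 5.55, 42.4 and 5.13 and TYK2 at 0 as listed, 8.45, 2.75 and 4.61. None of these 4 was called in any line. Of 8 receptor and kinase genes compared, IL10RB, a chain of the receptor for type III interferons, was high in THP-1 (3.35% of protein-coding genes) at 50.8. IFNGR2 of the type II receptor was low in K562 (3.65%), where it was listed at 0.

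Of 10 further transcription factors compared, 2 were high in THP-1 (3.35% of protein-coding genes) and 1 was low in K562 (3.65%). IRF8, a transcription factor of monocytes, was at 558 there and at most 3.32 elsewhere, and IRF5 was at 39.2 and at most 4.54. IRF1 was the low gene and was listed at 0 in K562. Of 13 further sensors and adaptors, 1 was high in THP-1 and 3 were low in K562, beside the same 3.35% and 3.65%. STING1, the adaptor of cytosolic DNA sensing, was at 234 in THP-1 and at most 17.9 elsewhere. The sensors IFIH1 and CGAS and the receptor chaperone UNC93B1 were the low ones, at 0.348 and, for the last pair, listed at 0 in K562. Among 14 negative regulators 1 was high in THP-1 (3.35%), 2 were low in K562 (3.65%) and 1 was low in HL60 (1.34%). SAMHD1, which depletes nucleotides and limits interferon induction, was at 154 and at most 30.4. In K562 PTPN6, a phosphatase that dampens the signal, was listed at 0 and RNASEH2B was at 5.40, both low, and PIAS3, a STAT inhibitor, was low in HL60 at 1.40. IRF8 is also a monocytic marker, and the summed level of such markers was highest in THP-1, as given above.

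A list of 58 other interferon-stimulated genes, 55 of them compared, gave medians of 0.73 in THP-1, 0.26 in the MOLM13-labelled library, -0.08 in HL60 and -0.97 in K562, beside 0.04, 0.12, -0.21 and -0.10 over all protein-coding genes compared. In this list 5 of 55 genes were high in THP-1 (3.35% of protein-coding genes), namely HERC6, UBA7, RTP4, DDX60 and TDRD7. Only GBP5 was high in the MOLM13-labelled library, 1 of 55 beside 1.94%. Among these TDRD7 was at 113 in THP-1 and at most 7.07 elsewhere. RTP4 was at 14.8 and DDX60 at 10.3 in THP-1, with no signal listed in K562, HL60 or the MOLM13-labelled library for either. GBP5, a GTPase that attacks pathogen vacuoles, was at 17.5 in the MOLM13-labelled library and at most 0.194 elsewhere. UBA7, the enzyme that activates ISG15, was at 46.3 in THP-1 and at most 8.60 elsewhere, and HERC6 was at 3.48 in THP-1 and listed at 0 elsewhere. Low in K562 were 4 of 55 genes (3.65%). Of these, PSMB8, an immunoproteasome subunit, was at 0.616 there and at 47.6 to 400 elsewhere. The other 3 were listed at 0 in K562, with SP110 at 8.60 to 14.2, APOBEC3G at 6.03 to 36.4 and DDX60L at 4.13 to 21.2 elsewhere. LGALS3BP was the 1 gene low in HL60 (1.34%), at 3.98 against 45.3 to 59.2. HERC6, UBA7, APOBEC3G, DDX60L and LGALS3BP had shorter distances than the rest and are named to complete the counts.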

How the data were processed

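Footprint libraries of 4 leukemia lines, 1 per line, were analysed from transcript tables. Per the submitters' processing notes, StringTie 2.1.5, STAR 2.7.8a, Bowtie2 2.4.2 and Trim Galore 0.6.6 were used on hg38. Per the file headers, StringTie ran against GENCODE release 37 without new transcripts and without a strand option. The authors deposited TPM, FPKM and mean coverage per transcript, with coverage per exon, as text attributes. The deposited TPM sums to 1000000 per library. Read counts were not used here.

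Gene sums of TPM were divided by a library factor, the median over 3751 genes (TPM of at least 10 everywhere) of the ratio to their geometric mean: 0.837, 1.01, 1.12 and 1.05 in K562, THP-1, the MOLM13-labelled library and HL60. Aligned bases are coverage times length. Gene types, coding regions and transcript types were taken from GENCODE 29, also on hg38, with 58405 genes typed by ID and 46 by RefSeq symbol. A member was named with its 4 values if high or low in a line or where its scaled TPM reached 20. From each pathway list, genes high or low were named, up to 6 by distance, with IFNAR1, IFNAR2, JAK1 and TYK2 in any case. The values of 1 more gene named by this rule are not reported here. Symbols of 15 list genes were matched by ID. The members, lists and rules were chosen with earlier results of these data known. The size rule was run on simulated data with counting noise only, in genes well above the base minimum and with changes larger than the rule requires. Calls that rest on low values or on transcript assignment were not tested by it. The work used Matplotlib 3.10.9, SciPy 1.17.1, pandas 2.3.3, NumPy 2.4.6, pyarrow 21.0.0 and Python 3.11.15.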

Additional observations from a re-analysis of the deposited data

How the results depend on the processing

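Each count and median was recomputed under 14 alternatives where it applied, 13 planned and 1, the addition of overlapping genes, chosen after seeing the data; counts within 1.5 times the stated one and smaller shifts of medians are not listed. IFITM3 high in THP-1, IFI16 and RSAD2 high in the MOLM13-labelled library and IFI30 low in it kept their calls under every alternative that could be applied to them. None of the alternatives varied how footprints that fit several IFITM genes were assigned. Of the 29-base coding fragments of IFITM3, 71.7% also occur in another gene, so its kept call does not cover this. No paired analysis was possible because each line has 1 library. For the same reason no replicate could be left out, and depth limits what a value of 0 can show.

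With deposited TPM and no further scaling, the K562 median was -1.17. The medians of all protein-coding genes compared were then -0.38 in K562, 0.07 in THP-1, 0.32 in the MOLM13-labelled library and -0.15 in HL60. With the scaling they were -0.10, 0.04, 0.12 and -0.21 in the same order. With TPM rescaled over nuclear protein-coding genes, the medians were -0.89 in K562, 1.01 in THP-1 and -0.76 in HL60, and K562 was above HL60 for 2 members. With aligned bases not divided by length, K562 was above HL60 for 2, and the high calls of IFI35, MX2 and IFI44 were lost. With overlapping genes added to these bases, 5 members were high in THP-1, K562 was above HL60 for 2, and the medians were -1.20 in K562 and -0.38 in the MOLM13-labelled library; IRF9, IFI35, MX2 and IFI44 lost their high calls.

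With a pseudocount of 0.1, the medians were 2.14 in THP-1, -1.86 in K562 and -1.18 in the MOLM13-labelled library. Then 3 members were low in K562, 1 was high in HL60, and HL60 was above K562 for 9, above the MOLM13-labelled library for 8 and above THP-1 for 1, with K562 above HL60 for 2. With a pseudocount of 5, the medians were -0.46 in K562, 0.58 in THP-1, -0.32 in the MOLM13-labelled library and -0.37 in HL60. Then 2 members were high in THP-1, 0 low in K562 and 1 low in the MOLM13-labelled library. THP-1 was above K562 for 4, above the MOLM13-labelled library for 6 and above HL60 for 2, while HL60 was above K562 for 1 and above the MOLM13-labelled library for 2, and K562 was above the latter for 1.

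At a log2 difference of 1, 1 member was high in K562, 1 in HL60 and 5 in the MOLM13-labelled library, and 3 were low in K562. HL60 was above THP-1 for 2, above K562 for 9 and above the MOLM13-labelled library for 7. K562 was above HL60 for 2 and above the MOLM13-labelled library for 4, which in turn was above HL60 for 10 and above K562 for 9. At a log2 difference of 3, 3 members were high in THP-1 and 0 low in K562. THP-1 was above HL60 for 4 and above the MOLM13-labelled library for 8, which was above THP-1 for 2, and HL60 was above K562 for 1.

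Without a minimum TPM the medians were -0.92 in K562 and -0.29 in the MOLM13-labelled library, and with a minimum of 5 they were 1.36 in THP-1 and -1.03 in the MOLM13-labelled library. With only the 12 members above 0 in all lines, the medians were -0.45 in K562, 0.60 in THP-1, 0.44 in the MOLM13-labelled library, where the sign turned, and -0.80 in HL60. Fewer genes enter these counts: 1 was high in THP-1 (IRF9), 1 high in the MOLM13-labelled library (IFI16) and 0 low in it or in K562. THP-1 was above K562 for 2 and above HL60 and the MOLM13-labelled library for 3 each, which itself was above K562 for 1, above THP-1 for 3 and above HL60 for 3. HL60 was above K562 and the MOLM13-labelled library for 0, and K562 was above the latter for 0. When the MOLM13-labelled library was left out, K562 had a median of -1.31, THP-1 of 1.88 and HL60 of -0.81, with 1 member high and 3 low in K562.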
